A study of Mus musculus with 3 samples.

Results

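Complement is a set of blood and tissue proteins that tag cells and debris for uptake and that start inflammation. Its genes were described here in single cells of the developing mouse prostate. A list of 7 genes was given, made of the chains of C1q (*C1qa*, *C1qb* and *C1qc*), the proteases *C1ra* and *C1s1*, the inhibitor gene *Serping1* and *Cfd*. Of these, 6 were analysed among the 9781 gene rows in use, and *Cfd* was not analysed here.

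The genes fall into roles. C1q, built from the products of *C1qa*, *C1qb* and *C1qc*, is the recognition molecule of the classical pathway, which binds antibody complexes and the surface of dying cells. The proteases C1r and C1s ride on C1q, and once C1q binds, C1r cleaves C1s and C1s cleaves the next components. The product of *Serping1*, C1 inhibitor, is a serpin that disables both proteases. Tissue macrophages are known as a main source of C1q, while mesenchymal cells and liver are known to make the proteases and the inhibitor.

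Single cell RNA-seq libraries came from 3 mouse groups, with 1 library each. One group was male urogenital sinus (UGS), out of which prostatic buds grow, taken from embryos at E18.5. The others were prostates of pups at P14 and of young mice at P35. All groups are labelled as normal tissue, and the labels give no strain, genotype or treatment and no number of animals. Per the study's methods, its mice had a mixed C57BL/6 and 129S1/SvImJ background, and which genotype these libraries came from is not given in the sources used here. Cells of all groups sat in 1 table of 14573 columns, whose barcodes end in 1, 2 or 3. No label ties an ending to an age, so the endings are given as barcode sets 1, 2 and 3 and no ages were compared. The sets held 766, 5350 and 8457 cells with a median of 19357, 1738 and 1788 UMIs (unique molecular identifiers, each standing for 1 captured RNA molecule) per cell, so set 1 had far deeper cells than the others. Between sets, 14 barcodes were shared. With 1 library per group there is no replicate and no test, and every interval covers counting error only.

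Cells were grouped by clusters found without the complement genes, and clusters were named from marker genes. Macrophage-like cells were 23, 10 and 74 in sets 1, 2 and 3, and other leukocyte-like cells 15, 15 and 103. Macrophage-like cells were 2 leukocyte subclusters, 0 and 5, that both carried *Mrc1* and *Pf4*. Of the 12 listed macrophage markers 8 were analysed here, and subcluster 0 carried 3 of them and subcluster 5 carried 5. Fibroblast-like cells were 376, 1671 and 2631, in a cluster 1 with *Col15a1* and *Tcf21* among its 10 leading genes and a cluster 2 led by *Dpt*. Epithelium-like cells were 119, 1407 and 2683. Cluster 12 (166 cells) carried 9 of 9 epithelial markers but was left unnamed by the naming rule. It is not among the epithelium-like cells.

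The C1q genes are neighbours on chromosome 4 of GRCm38.p6, where *C1qb* (136880126 to 136886200), *C1qc* (136889801 to 136892936) and *C1qa* (136895916 to 136898844) lie within 18.7 kb. *C1ra* (124512621 to 124523440) and *C1s1* (124530344 to 124542392) are neighbours within 29.8 kb of chromosome 6. *Serping1* is on chromosome 2 (84765360 to 84775444). Promoter sequence was found in RefSeq for 4 of the 6 genes, *C1qb*, *C1qc*, *C1ra* and *C1s1*. The 250 bases before the start are shown for *C1qb* and *C1qc*, whose levels ran together across classes of cells, and for *C1ra*, whose level did not run with theirs. Capitals mark the letters AGGAAGT on either strand, a form of the core that ETS family factors such as the myeloid factor PU.1 are known to bind.
C1qb, chr4:136886201-136886450, minus strand: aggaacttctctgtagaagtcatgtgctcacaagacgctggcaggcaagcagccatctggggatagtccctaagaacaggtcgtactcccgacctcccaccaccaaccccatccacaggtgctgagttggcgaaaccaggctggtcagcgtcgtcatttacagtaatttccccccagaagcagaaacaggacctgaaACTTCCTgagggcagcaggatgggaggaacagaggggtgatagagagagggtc
C1qc, chr4:136892915-136893164, minus strand: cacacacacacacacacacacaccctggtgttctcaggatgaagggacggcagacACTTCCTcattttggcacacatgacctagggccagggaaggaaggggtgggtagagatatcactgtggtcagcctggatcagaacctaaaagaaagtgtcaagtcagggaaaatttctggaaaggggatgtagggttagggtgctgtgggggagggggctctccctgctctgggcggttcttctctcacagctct
C1ra, chr6:124512371-124512620, plus strand: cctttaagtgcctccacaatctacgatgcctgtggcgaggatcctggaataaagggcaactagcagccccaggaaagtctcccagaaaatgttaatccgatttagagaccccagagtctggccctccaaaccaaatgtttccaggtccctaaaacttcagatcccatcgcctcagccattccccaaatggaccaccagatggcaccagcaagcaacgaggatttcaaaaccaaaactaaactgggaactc

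*C1qb* held the letters once, 53 bases before its start, and *C1qc* once, 195 bases before its start, both on the opposite strand. The windows of *C1ra* and *C1s1* held none. Among 32851 mouse promoter windows of the same 250 bases, 7.69% held them. These letters were chosen after the sequences had been seen. The letters TGCTGAC of a Maf type motif (in 3.81% of windows) and TTCNNNGAA of a STAT type motif (7.02%), searched on both strands, were found in none of the 4 genes. The *C1qc* window reaches 22 bases into the gene model. A match describes letters only.

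C1q transcripts were abundant in macrophage-like cells and rare outside leukocyte-like cells. The *C1qa*, *C1qb* and *C1qc* UMIs summed to 9057 CPM (counts per 1000000 UMIs of all genes, exact 95% Poisson interval 8716 to 9407, from 2662 UMIs) in set 1, 4754 (3739 to 5959, 75 UMIs) in set 2 and 10113 (9591 to 10657, 1403 UMIs) in set 3. All other cells together stood at 0.791, 4.71 and 20.3 CPM. The log2 ratio of macrophage-like over all other cells was 13.48 (12.78 to 14.29), 9.98 (9.50 to 10.46) and 8.96 (8.82 to 9.11), with exact binomial intervals. Its size depended on how cells were classed, well beyond these intervals. With cells classed one by one from markers the ratio of set 1 was 9.61, and without centring before leukocytes were clustered the ratios were 11.93, 9.41 and 7.98. It was 7.77 in set 3 with complement genes kept for clustering and 9.68 there without the top 5% of doublet scores, and 10.68 in set 2 as a mean of per-cell rates. With complement genes kept, too few cells of sets 1 and 2 were classed as macrophage-like to give a ratio. Set 2 rested on 10 cells, and its rate lay below those of sets 1 and 3 beyond counting error.

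*C1qa*, the gene of the A chain, stood at 2749 (2563 to 2945), 1648 (1077 to 2415) and 4282 (3944 to 4640.4) CPM in macrophage-like cells of sets 1, 2 and 3. *C1qb*, the gene of the B chain, stood at 3637 (3422 to 3862), 1711 (1128 to 2489.9) and 3777 (3461 to 4115) CPM. *C1qc*, the gene of the C chain, stood at 2671 (2487 to 2864), 1394 (874 to 2111) and 2054 (1823 to 2307) CPM. Each chain gene lay above its rate in all other cells in each set, with log2 ratios between 8.88 (*C1qb* in set 3) and 13.72 (*C1qc* in set 1). A gene was called where it differed 2-fold or more with at least 3 UMIs in the higher group, among genes with at least 10 UMIs over both groups. By this rule 3 of the 6 genes, the C1q genes, were called higher in each set. *C1ra* of set 1 was past 2-fold (log2 ratio 1.82, -1.28 to 3.77) but was not called, as it rested on 2 macrophage UMIs. Over all genes so tested, 10.2%, 3.16% and 8.42% were called higher.

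**Figure D1:**
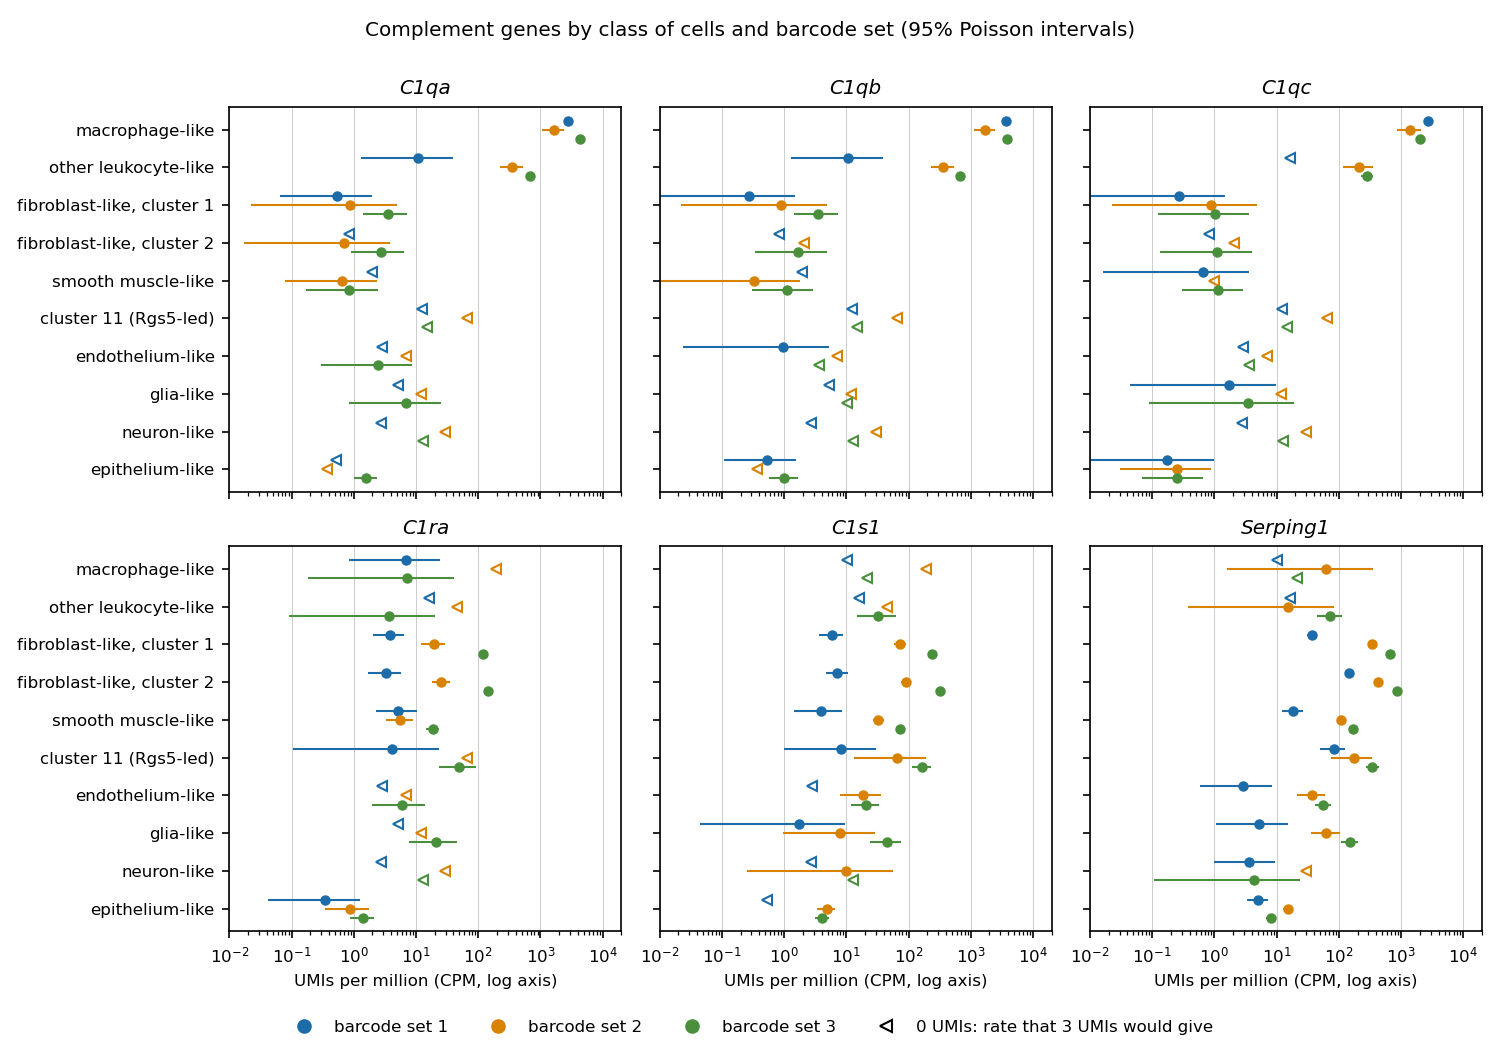
Rates of the 6 complement genes (horizontal log axis, CPM) by class of cells (vertical axis) and barcode set (colour), with 95% Poisson intervals. Open triangles give the rate of 3 UMIs where a class had 0 UMIs. The C1q genes are highest in macrophage-like cells, and *C1ra*, *C1s1* and *Serping1* are highest in the fibroblast-like clusters in set 3.

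The 3 chain genes were found together in nearly every macrophage-like cell. All 3 were detected in 23 of 23 cells of set 1, 9 of 10 of set 2 and 64 of 74 of set 3, where 3 cells had no C1q UMI. Per cell, the summed C1q rate had a lowest, median and highest value of 4638, 8989 and 33244 CPM in set 1. These values were 1606, 4712 and 8445 CPM in set 2, and 0, 9367 and 22941 CPM in set 3. Macrophage-like cells of set 1 were deeper (median 9638 UMIs) than those of sets 2 and 3 (1417 and 1753.5). After every cell was thinned to 900 UMIs, which left out 7, 342 and 693 shallower cells of sets 1, 2 and 3, a C1q UMI was found in 100% (exact 95% binomial interval 85.2 to 100), 100% (69.2 to 100) and 95.8% (88.1 to 99.1) of them. In epithelium-like cells, a class not known for C1q, the thinned share was 0% (0 to 3.05), 0% (0 to 0.264) and 0.227% (0.0833 to 0.493), from cells of median depth 41580, 4064 and 3451 UMIs. Unthinned, the shares were 100%, 100% and 95.9% in macrophage-like and 1.68%, 0.0711% and 0.596% in epithelium-like cells.

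C1q was found in both macrophage-like subclusters. In set 3, subcluster 0 (36 cells) stood at 10674 CPM (9882 to 11512) and subcluster 5 (38 cells) at 9648 CPM (8961 to 10373), with overlapping intervals. In set 2 the order was the other way, at 4124 CPM (3051 to 5452) in 7 cells of subcluster 0 and 6675 CPM (4360.5 to 9781) in 3 of subcluster 5, again with overlapping intervals. Subcluster 0 was led by *Crybb1*, *Tmem119* and *P2ry12* and held all 23 macrophage-like cells of set 1. Subcluster 5 was led by *Gdf15* and *Cd163*. Its 10 leading genes also held *Wfdc15b* and *Folr1*, the first 2 leading genes of cluster 12, which carried 9 of 9 epithelial markers. Subcluster 5 carried the fibroblast marker *Dcn* as well. Whether RNA of other cells added to subcluster 5 was not tested. The 8 macrophage markers summed to 6067 CPM in subcluster 0 and 13278 CPM in subcluster 5 of set 3, so the marker sum differed by more than the C1q rate.

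**Figure D2:**
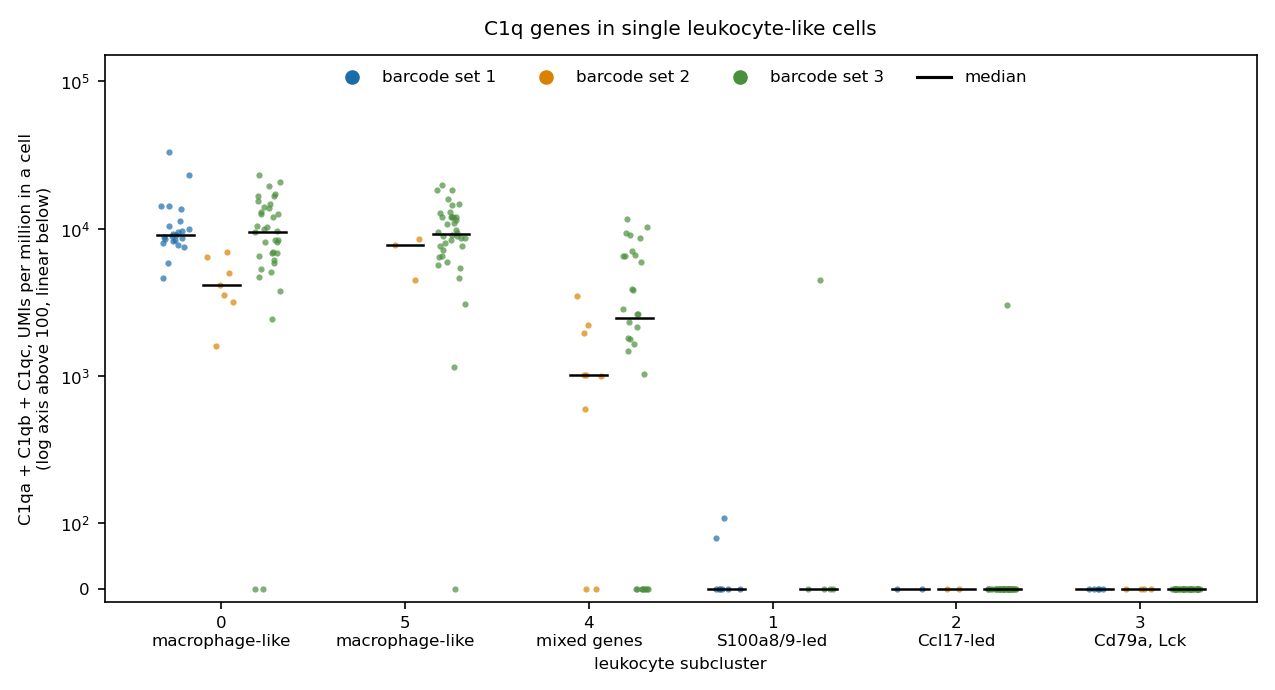
Summed *C1qa*, *C1qb* and *C1qc* rate of each leukocyte-like cell (vertical axis, CPM, log above 100 and linear below) by leukocyte subcluster (horizontal axis) and barcode set (colour), with the median as a bar. Most cells of subclusters 0 and 5 sit above 1000, those of subcluster 4 spread from 0 upwards, and most of subclusters 1, 2 and 3 sit at 0.

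Other leukocyte-like cells differed among themselves in C1q. Subcluster 3, with the B cell gene *Cd79a* among its leading genes and 3 of 3 T or NK cell markers carried, had 0 C1q UMIs in its 43 cells. Subcluster 2, led by the chemokine gene *Ccl17*, had 0, 0 and 8 UMIs, the latter from 1 cell. Subcluster 1, led by the neutrophil genes *S100a9* and *S100a8*, had 4 C1q UMIs in 8 cells of set 1, or 40.9 CPM (11.1 to 105). In those cells the 8 macrophage markers summed to 18431 CPM, against 5345 CPM in macrophage-like cells of set 1, so a high marker sum stood there beside a low C1q rate. In set 3, subcluster 1 had 12 C1q UMIs, all in 1 of its 5 cells.

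Subcluster 4 held 39 cells, none of set 1, and had C1q at 1071 CPM (819 to 1375) in set 2 and 3457 (3137 to 3799.8) in set 3. These cells also carried 6 of 9 epithelial, 5 of 7 fibroblast and 6 of 6 smooth muscle markers. They held 61 of the 75 C1q UMIs found outside macrophage-like cells in set 2 and 429 of 552 in set 3. Without subcluster 4, the log2 ratio of macrophage-like over all other cells was 12.39 in set 2 and 11.12 in set 3. Whether these are doublets (droplets with more than 1 cell) was not tested.

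Outside leukocyte-like cells, C1q UMIs were few. All such cells together stood at 0.599 (0.3095 to 1.05), 0.883 (0.483 to 1.48) and 3.82 (3.12 to 4.63) CPM in sets 1, 2 and 3. Epithelium-like cells held 4, 2 and 45 C1q UMIs and fibroblast-like cells 4, 4 and 26. The unnamed cluster 12 held 8 *C1qa*, 2 *C1qb* and 5 *C1qc* UMIs in set 3. It had 1 *C1qa* UMI in set 1 and 3 *C1qb* UMIs in set 2. In fibroblast-like cells the C1q rate was 0.00602%, 0.0325% and 0.0681% of the macrophage-like rate, beside 2.07%, 1.22% and 1.2% for the 8 macrophage markers summed. That sum is not restricted to macrophages. In set 1 it stood at 9964 CPM in other leukocyte-like and 5345 CPM in macrophage-like cells, with the other order in sets 2 and 3. In fibroblast-like cells of each set, 5 of the 8 markers were found. Leukocyte-like cells held 99.6%, 90.7% and 94.7% of all C1q UMIs, from 2.34%, 0.515% and 1.51% of the UMIs of all genes. The part of free RNA, which is RNA of broken cells that enters every droplet, in the C1q UMIs outside leukocyte-like cells was not tested.

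The chain genes did not stand in 1 fixed proportion. In macrophage-like cells *C1qa* made up 30.4% (28.6 to 32.1) of C1q UMIs in set 1, 34.7% (24.04 to 46.5) in set 2 and 42.3% (39.7 to 44.97) in set 3. *C1qb* made up 40.2% (38.3 to 42.05), 36% (25.2 to 47.9) and 37.3% (34.8 to 39.9). *C1qc* made up 29.5% (27.8 to 31.3), 29.3% (19.4 to 40.98) and 20.3% (18.2 to 22.5). The intervals of sets 1 and 3 did not overlap for *C1qa* and *C1qc* and overlapped for *C1qb*. Within set 3 the *C1qa* share was 42.6% in subcluster 0, 42.1% in subcluster 5 and 41.3% in subcluster 4. Each set may differ from the others by library as well as by tissue, and these cannot be told apart.

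**Figure D3:**
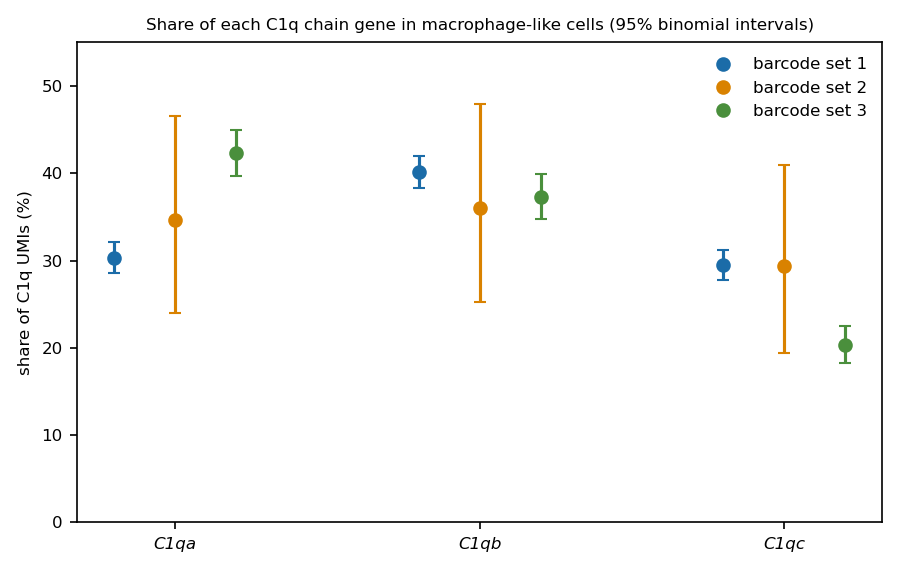
Share of C1q UMIs (vertical axis, %) from *C1qa*, *C1qb* and *C1qc* (horizontal axis) in macrophage-like cells of each barcode set (colour), with exact 95% binomial intervals. The set 3 share lies above that of set 1 for *C1qa* and below it for *C1qc*.

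The proteases and the inhibitor had another distribution. Among the named classes, *C1ra*, *C1s1* and *Serping1* were highest in fibroblast-like cells in sets 2 and 3. Macrophage-like cells had at most 2 UMIs of each gene in each set. In set 1 *C1ra* ran the other way, at 6.804 CPM (0.824 to 24.6, 2 UMIs) in macrophage-like and 5.204 CPM (2.25 to 10.3) in smooth muscle-like cells against 3.54 CPM (2.31 to 5.19) in fibroblast-like cells, with overlapping intervals. Fibroblast-like cells held 63.4%, 69.4% and 78.7% of all *C1ra* UMIs, 84.2%, 53.2% and 69.7% of *C1s1* UMIs and 86.5%, 62.5% and 72.7% of *Serping1* UMIs. The same cells held 35.8%, 16.2% and 13.8% of the UMIs of all genes.

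*C1ra*, the gene of the protease that cleaves C1s, stood at 3.54 (2.31 to 5.19), 22.8 (17.4 to 29.4) and 132 (121 to 144) CPM in fibroblast-like cells, from 26, 59 and 499 UMIs. Epithelium-like cells had 0.351 (0.0425 to 1.27), 0.869 (0.349 to 1.79) and 1.395 (0.875 to 2.11) CPM of it. The log2 ratio of fibroblast-like over epithelium-like cells was 3.33 (1.34 to 6.45), 4.71 (3.58 to 6.09) and 6.57 (5.95 to 7.25). The ratio of set 1 rested on 2 epithelial UMIs. After thinning to 900 UMIs, a *C1ra* UMI was found in 0.267%, 1.97% and 10.9% of fibroblast-like and 0%, 0.0715% and 0.113% of epithelium-like cells. The 0 of set 1 allows a share of up to 3.05%.

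*C1s1*, the gene of the protease that cleaves the next components, stood at 6.54 (4.82 to 8.67), 83.1 (72.4 to 94.99) and 279 (262 to 296) CPM in fibroblast-like cells. Epithelium-like cells had 0 UMIs in set 1, where 3 UMIs over the class would be 0.527 CPM, and stood at 4.84 (3.44 to 6.62) and 4.12 (3.18 to 5.26) CPM in sets 2 and 3. Fibroblast-like cells were at least 12.4-fold higher in set 1. The log2 ratios of sets 2 and 3 were 4.10 (3.60 to 4.63) and 6.08 (5.72 to 6.46). Thinned shares were 0%, 7.95% and 22.6% of fibroblast-like and 0%, 0.429% and 0.378% of epithelium-like cells, where the values of 0 allow up to 0.979% and 3.05%. *C1ra* and *C1s1* have near-identical copies, *C1rb* and *C1s2*, that were not analysed here, so how reads were split between copies is uncertain.

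*Serping1*, the gene of C1 inhibitor, stood at 90.6 (83.8 to 97.7), 390.4 (367 to 415) and 760.2 (733 to 789) CPM in fibroblast-like cells. Epithelium-like cells had 5.09 (3.41 to 7.31), 15.02 (12.5 to 17.95) and 8.12 (6.77 to 9.65) CPM of it. The log2 ratio was 4.15 (3.62 to 4.74), 4.70 (4.43 to 4.98) and 6.55 (6.29 to 6.82). A *Serping1* UMI was found in 50.5%, 39.9% and 57.2% of fibroblast-like cells at median depths of 15929, 1256 and 1326 UMIs. Thinned to 900 UMIs, these shares were 6.93% (4.58 to 9.99), 28.1% (25.8 to 30.5) and 46.1% (44.02 to 48.2), so the order of sets 1 and 2 turned with depth. The thinned shares in epithelium-like cells were 0%, 1.29% and 0.567%, where the 0 again allows up to 3.05%.

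At 2-fold or more, *C1ra*, *C1s1* and *Serping1* were higher in fibroblast-like than in epithelium-like cells in each set. They were the only listed genes with at least 10 UMIs in sets 1 and 2. In set 3 *C1qa* and *C1qb* were also tested and called, from 12 and 10 UMIs in fibroblast-like cells, and the interval of the *C1qa* log2 ratio contained 0 (1.004, -0.12 to 2.05). Over all genes, 26.8%, 20.7% and 23% were called higher and 16.7%, 17.4% and 23% lower. The median log2 ratio of the listed genes tested was 4.70 and 6.08 in sets 2 and 3, beside 0.05 and -0.14 over all genes tested. In set 1 it fell on the lower bound of *C1s1* and was thus at least 3.63, beside 0.18 over all genes tested. *C1ra* in sets 1 and 2 and *C1s1* in set 1 passed the 10 UMI rule only through fibroblast-like cells. The listed genes were also chosen with earlier results of these data known, so these medians are a description. Without the top 5% of doublet scores the ratios of set 3 were 7.28 for *C1ra*, 6.74 for *C1s1* and 7.31 for *Serping1*, and without integration of the sets those of set 2 were 5.62 for *C1s1* and 5.84 for *Serping1*. Fibroblast transcripts were also found in epithelium-like cells. The epithelium-like rate was 5.62%, 3.85% and 1.07% of the fibroblast-like rate for *Serping1* and 0.905%, 4.25% and 1.03% for the collagen gene *Col1a2*. For the collagen gene *Col3a1* it was 0.816%, 3.92% and 0.985%, and for the matrix gene *Dcn* 2.18%, 22.8% and 11.4%, above *Serping1* in sets 2 and 3. The part of free RNA in the epithelial UMIs was not tested.

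**Figure D4:**
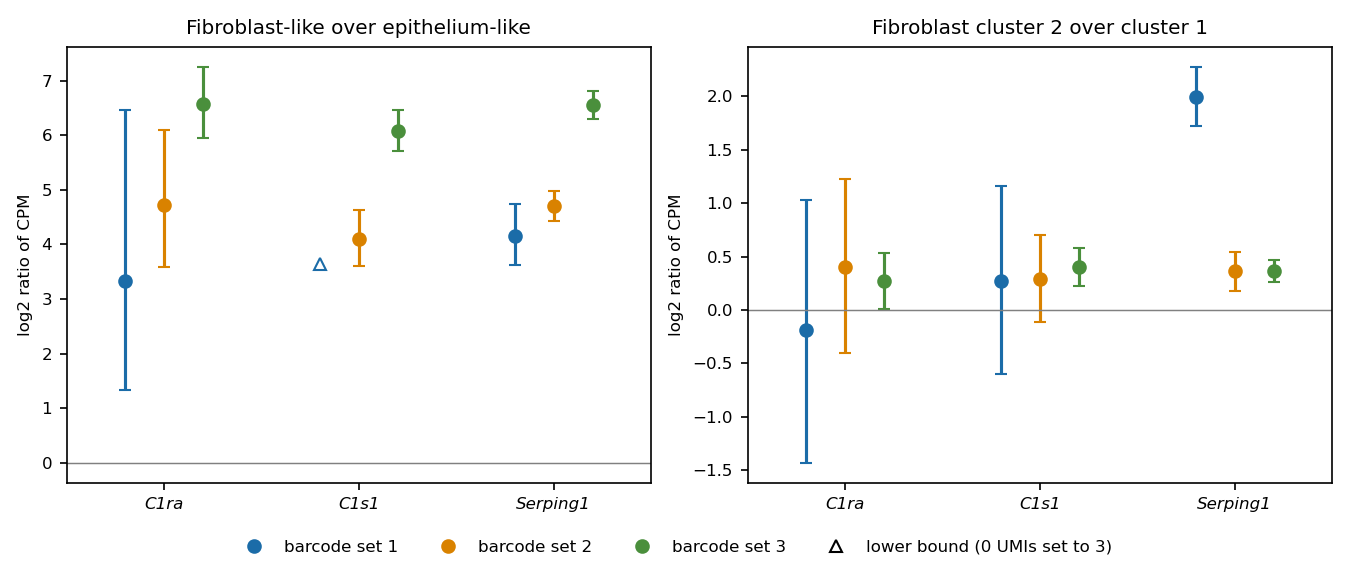
Log2 ratio of CPM (vertical axis) of *C1ra*, *C1s1* and *Serping1* (horizontal axis) for fibroblast-like over epithelium-like cells (left) and for fibroblast cluster 2 over cluster 1 (right) in each barcode set (colour), with exact 95% intervals. The open triangle is a lower bound, every ratio on the left lies above 3, and on the right *Serping1* of set 1 lies highest.

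Epithelium-like clusters were not alike. Cluster 5, led by *Lamb3* and *Sfn*, had *Serping1* at 24.4 CPM (19.6 to 30.2) in set 2 and 16.3 (12.6 to 20.9) in set 3. Cluster 4, led by *Asprv1* and *Clca1*, stood at 6.84 (4.38 to 10.2) and 5.38 (3.98 to 7.11) CPM. For *C1s1* cluster 5 stood at 8.71 (5.92 to 12.4) and 11.4 (8.29 to 15.3) CPM, and cluster 4 at 1.43 (0.463 to 3.33) and 1.65 (0.921 to 2.72) CPM. The intervals of clusters 4 and 5 did not overlap for either gene in sets 2 and 3. Cluster 3, led by *Lgals7* and *Serpinb5*, had *Serping1* at 10.1 (4.86 to 18.6) and 5.72 (3.27 to 9.29) CPM, which overlapped cluster 4 and not cluster 5. Its *C1s1* stood at 3.04 (0.627 to 8.88) CPM in set 2, overlapping both, and at 2.14 (0.787 to 4.67) CPM in set 3, overlapping cluster 4 alone. Set 1 did not show that order. There cluster 4 (101 cells) held all 29 epithelial *Serping1* UMIs, at 5.68 CPM (3.802 to 8.15). Cluster 5 (16 cells) had 0 UMIs, where 3 UMIs would be 5.29 CPM, so a difference was not detectable at this depth, and cluster 3 had 2 cells. No *C1s1* UMI was found in any of these clusters in set 1.

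Macrophage-like cells had 0, 0 and 0 *C1s1* UMIs, 2, 0 and 1 *C1ra* UMIs and 0, 1 and 0 *Serping1* UMIs. In set 3, where 3 UMIs over the class would be 21.6 CPM, *C1s1* was at least 12.9-fold and *Serping1* at least 35.2-fold higher in fibroblast-like cells, and the log2 ratio of *C1ra* was 4.20 (1.71 to 9.50) from 1 macrophage UMI. In set 1, where 3 UMIs would be 10.2 CPM, *Serping1* was at least 8.88-fold higher. In sets 1 and 2 a difference in *C1s1* or *C1ra* was not detectable at this depth.

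Smooth muscle-like cells, the largest class after the fibroblast-like and epithelium-like cells, had *Serping1* at 18.2 (12.1 to 26.3), 108 (96.2 to 119.9) and 167 (154 to 181) CPM. The log2 ratio of fibroblast-like over smooth muscle-like cells was 2.31 (1.77 to 2.92), 1.86 (1.68 to 2.04) and 2.18 (2.06 to 2.31). *C1s1* stood there at 3.903, 32.7 and 72.3 CPM, and *C1ra* at 5.204, 5.61 and 18.6 CPM. In set 1 the intervals of both protease ratios contained 0 (*C1ra* -0.56, -1.74 to 0.80 and *C1s1* 0.74, -0.48 to 2.26). In sets 2 and 3 fibroblast-like cells were higher for both proteases beyond counting error.

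Cluster 11, an unnamed cluster led by *Rgs5* that carried 4 of 4 pericyte and 6 of 6 smooth muscle markers, had *Serping1* at 82.9 (50.7 to 128), 174 (75.3 to 344) and 347 (270.2 to 438) CPM. Its *C1s1* rate in set 3 was 163 CPM (112 to 229). Glia-like cells had *Serping1* at 5.202, 63.4 and 149 CPM, endothelium-like cells at 2.85, 37.4 and 55.8 CPM and neuron-like cells at 3.66, 0 and 4.28 CPM, where 3 UMIs in set 2 would be 29.8 CPM. Among cluster 11 and the named classes other than neuron-like and leukocyte-like cells, the *Serping1* order in set 3 was fibroblast-like, cluster 11, smooth muscle-like, glia-like, endothelium-like and epithelium-like. The intervals of neighbours in this order overlapped for smooth muscle-like and glia-like cells and for no other pair.

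Within fibroblast-like cells, cluster 2 had more *Serping1* than cluster 1, most of all in set 1. The *Serping1* rates of cluster 2 were 146 (134 to 159), 432 (399 to 468) and 861 (819 to 905) CPM, and those of cluster 1 were 36.6 (30.7 to 43.3), 337 (304 to 372) and 668 (633 to 705) CPM. The log2 ratio of cluster 2 over cluster 1 was 1.995 (1.72 to 2.28), 0.36 (0.18 to 0.55) and 0.37 (0.26 to 0.47). When fibroblast-like cells were instead split by their UMIs of *Dpt* and *Lum* against *Tcf21* and *Col15a1*, the ratio of set 2 was -0.053, so its direction was not kept. *Lum*, the gene of the matrix protein lumican, stood at 1107, 629 and 1423 CPM in cluster 2 and 194, 168 and 466 CPM in cluster 1.

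For *C1s1* and *C1ra*, the intervals of the ratio between the fibroblast clusters contained 0 in sets 1 and 2 and lay above 0 in set 3. The *C1s1* log2 ratio was 0.28 (-0.60 to 1.16), 0.29 (-0.12 to 0.70) and 0.41 (0.23 to 0.58), and that of *C1ra* was -0.19 (-1.43 to 1.03), 0.40 (-0.40 to 1.23) and 0.27 (0.01 to 0.53). At 2-fold or more, 1 of 3 listed genes tested was called higher in cluster 2 of set 1, 0 of 3 in set 2 and 0 of 5 in set 3, beside 8.9%, 6.43% and 6.6% of all genes. Lower calls were 0, 0 and 1, the last being *C1qb* from 3 and 7 UMIs, beside 19.9%, 5.14% and 7.31% of all genes.

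Across 44 units of class and set with at least 20000 UMIs, each gene's log2(CPM + 5) was set beside that of every gene with at least 50 UMIs. Most like the summed C1q genes were *Pf4* (Pearson's r 0.97), *Mrc1* (0.96) and *Fcrls* (0.96). Most like *Serping1* were the collagen receptor gene *Ddr2* (0.91), *Adamtsl1* (0.91) and *C1s1* (0.91), and most like *C1s1* were *Serping1*, *Adamtsl1* (0.86) and *Kcne4* (0.84). Among those most like *C1ra* were *Tfpi2* (0.78) and *C1s1* (0.78). The summed C1q genes had an r of 0.04 with *C1ra*, -0.15 with *C1s1* and -0.21 with *Serping1*. *Pf4* and *Mrc1* were also markers by which the macrophage-like subclusters were named, and *Fcrls* was a leading gene of subcluster 0. Their likeness to the C1q genes is therefore not independent of the classes. Units of 1 set share a library and its depth, so the values are a description.

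Of 32 other complement genes listed, 20 were analysed. In macrophage-like over all other cells, 8 of 16, 2 of 10 and 8 of 17 with at least 10 UMIs were at least 2-fold higher in sets 1, 2 and 3, beside 10.2%, 3.16% and 8.42% of all genes. Between fibroblast-like and epithelium-like cells, 4 of 10, 2 of 7 and 5 of 13 were higher, beside 26.8%, 20.7% and 23% of all genes, and 3, 1 and 1 were lower, beside 16.7%, 17.4% and 23%. With so few genes tested, nothing is read from these counts. *C3ar1*, the receptor for the fragment C3a, stood at 504, 254 and 382 CPM in macrophage-like cells, with log2 ratios over all other cells of 8.85 (8.20 to 9.57), 8.07 (6.02 to 9.72) and 8.70 (7.99 to 9.45). *C5ar1*, a receptor for C5a, stood at 442, 507 and 483 CPM there and at 474, 136 and 91.1 CPM in other leukocyte-like cells.

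**Figure D5:**
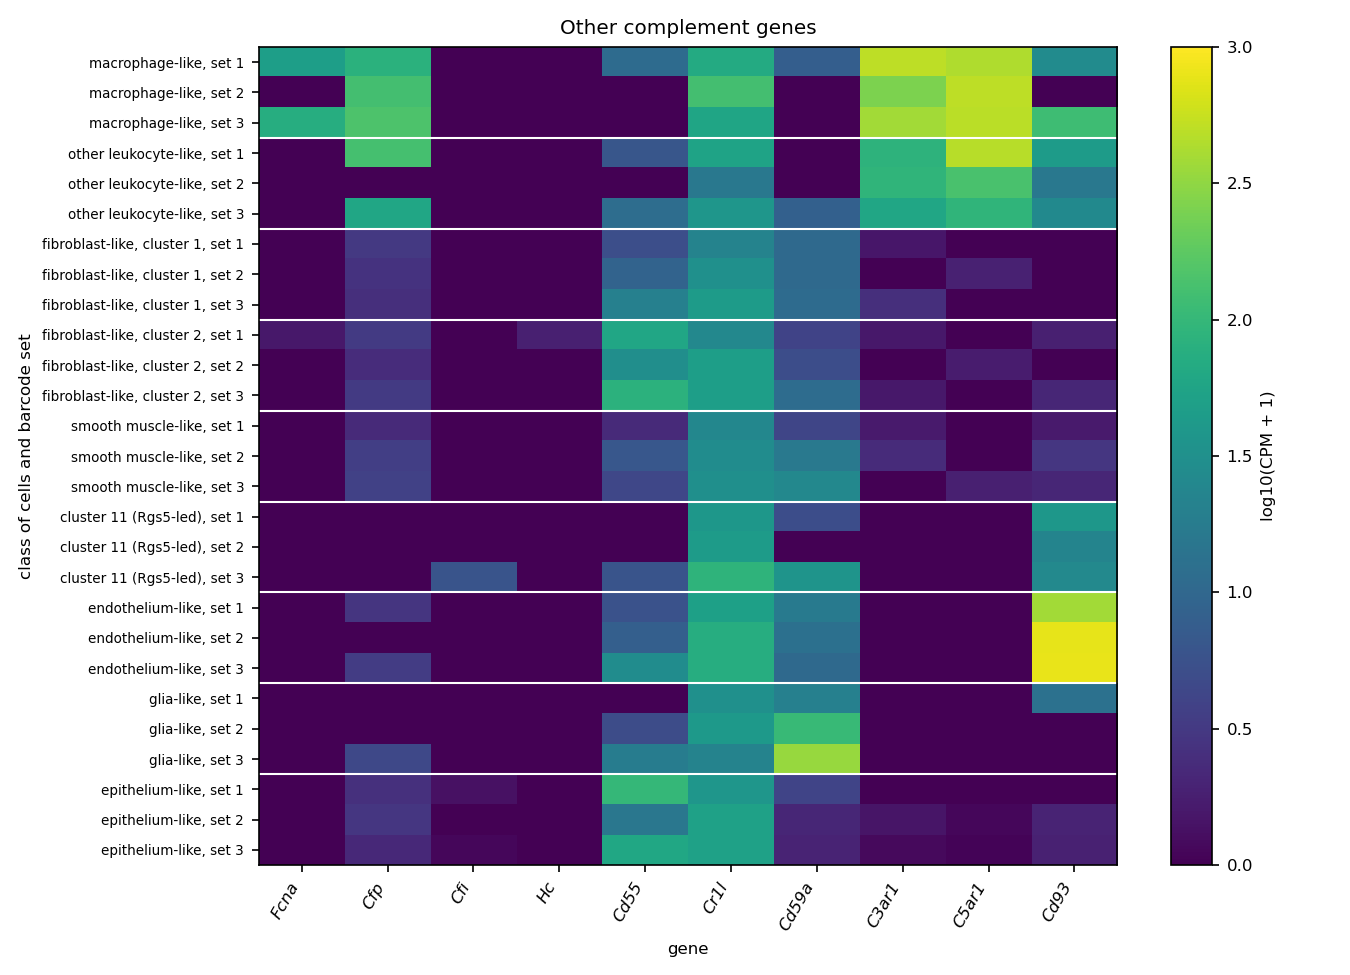
Rates of the 10 other complement genes described (horizontal axis) by class of cells and barcode set (vertical axis), as log10(CPM + 1) in colour. *C3ar1* and *C5ar1* are bright in leukocyte-like rows, *Cd93* in endothelium-like rows and *Cd59a* in the glia-like row of set 3.

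*Fcna*, the gene of the lectin pathway protein ficolin A, had 14, 0 and 10 UMIs in macrophage-like cells and 2, 0 and 0 in all other cells. *Cfp*, the gene of properdin, which stabilises the alternative pathway convertase, stood at 81.7, 127 and 144 CPM in macrophage-like cells and 129, 0 and 58.3 CPM in other leukocyte-like cells, where 3 UMIs in set 2 would be 45.3 CPM. *Hc*, the gene of C5, had 3, 0 and 0 UMIs over all cells of sets 1, 2 and 3, and *Cfi* had 2, 0 and 3.

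Regulators at the cell surface were spread over several classes. *Cd55*, the gene of decay accelerating factor, had rates of 97.4, 14.4 and 60.01 CPM in epithelium-like cells. Fibroblast cluster 2 had 58.8, 29.7 and 84.6 CPM of it and cluster 1 had 4.31, 7.91 and 19.2 CPM. *Cd59a*, whose product blocks the membrane attack complex, stood at 19.1, 103 and 343 CPM in glia-like cells. *Cr1l*, the gene of the rodent regulator Crry, was at 36.5, 50.4 and 50.4 CPM in epithelium-like and 22.6, 39.8 and 44.8 CPM in fibroblast-like cells. *Cd93*, once named as a C1q receptor gene, stood at 382, 768 and 798 CPM in endothelium-like cells.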

How the data were processed

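The members and gene lists were chosen with earlier results of these data known, and the sub-clustering of leukocytes, its centring and the naming rule were set after seeing the data. Per the submitters' processing notes and the study, UMIs were counted with Cell Ranger 3.1.0 on mm10. Values deposited by the authors are the natural log of 1 plus 10000 times the share of a cell's UMIs that fell on a gene, and not raw counts as the design had foreseen. Whole UMIs were recovered for 100% of 11120293 values above 0 (tolerance 0.05), with each cell's total over all genes. The table was held in part (9784 rows, of which 3 were left out), so some listed genes were not analysed here. Cells under 200 genes were left out (97, all of set 3).

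Clusters were made in Seurat 5.3.0 (R 4.3.3) with 2000 features, 20 integration dimensions, cell cycle scores regressed out, 30 principal components and resolution 0.5, leaving out all complement genes and *EGFP* from the features. Leukocyte-like cells were clustered again in scanpy 1.11.5 after centring each set. To be carried, a marker needed a UMI in 10% or more of a cluster's cells and a rate 2 or more times the median over clusters. A class name was given where that class alone reached 3 such markers and none outnumbered it in the 10 leading genes. Scrublet called 3, 0 and 0 cells in sets 1, 2 and 3, and only its scores were used, in an alternative. Per the study, potential multiplets were filtered out. Whether that held for every cell of this table could not be told, and none was removed here.

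Rates are summed UMIs with exact 95% Poisson intervals. Shares and log2 ratios have exact binomial intervals. In a ratio a sum of 0 was set to 3 UMIs. Without replicates no test and no p-value was computed. Genes named are the members, the listed complement genes and the 3 genes most similar to each member, with cluster leading genes and markers for description. Some genes that this rule names are not reported here. Positions and promoters are from RefSeq on GRCm38.p6, where 91.1% of rows matched a symbol. The steps were tested on simulated data. Alternatives are in the closing section.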

Additional observations from a re-analysis of the deposited data

How the results depend on the processing

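No paired analysis was possible because there was 1 library per group. Across 27 results, 106 values were recomputed, of which 78 fell inside the 95% interval of the value given above, 27 fell outside it and 1 changed sign. The cause of each move was not tested. The C1q log2 ratio moved in set 1 to 9.61 with cells classed one by one and 11.93 without centring, in set 2 to 10.68 as a mean of per-cell rates, 9.41 without centring and 12.39 without subcluster 4, and in set 3 to 8.79 with cells classed one by one, 7.77 with complement genes kept among the features, 9.68 without the top 5% of doublet scores, 7.98 without centring and 11.12 without subcluster 4. For fibroblast-like over epithelium-like cells, leaving out those doublet scores gave 7.28 for *C1ra*, 6.74 for *C1s1* and 7.31 for *Serping1* in set 3, and 5.16 for *Serping1* in set 2. No integration gave 5.62 and 5.64 for *C1s1* in sets 2 and 3, and 5.35 (1 against 30 UMIs), 5.84 and 5.74 for *Serping1* in sets 1, 2 and 3. Cells classed one by one gave 4.81 for *C1s1* in set 2 and 6.87 for *Serping1* in set 3, and resolution 1.0 gave 6.53 for *C1s1* in set 3. None of these changed direction. Splitting fibroblast-like cells by *Dpt* and *Lum* against *Tcf21* and *Col15a1* gave 0.59 for *C1ra* and 0.23 for *C1s1* in set 3, 2.74 for *Serping1* in set 1 and the change of sign, -0.053, for *Serping1* in set 2. Thinned to 1200 UMIs, the *Serping1* share of fibroblast-like cells was 33.4% in set 2 and 53.5% in set 3. The alternatives of centring, subcluster 4 and the split, and those for doublets and means between fibroblast clusters, were chosen after seeing the data. Requiring 1000 genes per cell named no macrophage-like or fibroblast-like cluster and gave no value, as did keeping complement genes for C1q in sets 1 and 2 and no integration for *C1ra* and *C1s1* in set 1. Keeping complement genes left too few macrophage-like cells in sets 1 and 2 for a ratio. Planned values for *Cfd* were not run.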
